A study of Mus musculus with 2 samples.

Results

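Junction pairs whose ends lie 3 bases apart were studied in RNA from the mouse thymus. A junction here is an intron seen in spliced reads, given by its first and last base. A pair is 2 junctions on the same chromosome and strand that share 1 end, differ by exactly 3 bases at the other end, and have at least 20 reads each. The deposited junction table holds 532115 junctions, of which 109771 have at least 20 reads. Among these, 636 pairs were found, made of 1269 junctions (1.16% of those with at least 20 reads) that hold 1.54% of their reads. The differing end was the acceptor (the 3′ end of the intron) in 610 pairs and the donor (its 5′ end) in 26. Because read counts chose the members, reads and shares of reads in them are described. They are not tested, except between the 2 read entries that make up each count.

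The RNA came from thymus of the inbred mouse strain C57BL/6J at an age of 8 weeks, with male and female littermates pooled. It was sequenced as polyadenylated RNA in 2 libraries of 1 group, labelled as biological replicates 1 and 2, with the same donor entry for both. There is no second condition. The junction table gives 1 pooled count per junction, and each junction's name holds 2 read entries that sum to that count; no label ties an entry to a library, so they are called the first and the second entry.

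Splicing removes an intron between a donor, which usually begins with GT, and an acceptor, which usually ends with AG. U2AF binds the pyrimidine-rich stretch and the AG at the acceptor, and the AG is chosen again in the second catalytic step, with Slu7 and Prpf18 among the factors acting there. Where the pattern NAGNAG (N is any base) stands at an intron's end, either AG can be used: the upstream acceptor leaves 3 more bases in the exon than the downstream acceptor does. In coding sequence such a choice leaves the reading frame intact.

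The sequences below show the bases at both acceptors of 8 pairs, chosen because they hold the main sequence types. Each runs 5′ to 3′ from 12 bases of the intron, through 2 groups of 3 bases in capitals, to 12 bases of the exon. The upstream acceptor cuts after the first capital group and the downstream acceptor after the second, so the second group is the stretch that is kept or removed. All are from coding sequence or its introns, read from GENCODE M21 transcripts on GRCm38 that cover the stretch. In order, they lie at chr1:165858428-165858457 (plus strand), chr17:48399054-48399083 (minus), chr9:107749785-107749814 (minus), chr15:102489737-102489766 (plus), chr16:20681719-20681748 (plus), chr11:95833320-95833349 (minus), chr10:81121028-81121057 (plus) and chr6:87845309-87845338 (minus).
Cd247: ctttctattcccCAGCAGaggaggaggaac
Nfya: tcttcctgttctCAGCAGcagggtggtgtc
Rbm5: attttgtttttgCAGCAGtacctgacacgt
Pcbp2: ttttctgtctttTAGCAGgtttggatgcat
Eif4g1: tcatcccttgtcTAGCAGgctggcctggga
Abi3: tgtcttccttccCAGAAGcagagttgcccc
Map2k2: ctttgtactgtcAAGTAGgtcatgggatgg
Cnbp: ttttccttattgTTGAAGcctgctataact

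The first 3 hold CAG at both acceptors, the next 2 hold TAG upstream and CAG downstream, Abi3 has AAG downstream, and Map2k2 has AAG upstream and TAG downstream. Cnbp is the exception: its upstream acceptor follows TTG, with no AG.

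Tandem donors look different. In the next sequences, 12 exon bases come first, the upstream donor cuts before the first capital group and the downstream donor before the second, and 3 intron bases follow. They lie at chr9:110079882-110079902 (plus), chr8:70023605-70023625 (minus), chr17:48398976-48398996 (minus), chr11:100893068-100893088 (minus) and chr6:87845668-87845688 (minus) on GRCm38.
Map4: ggtgccgtgaagGTAGTGagt
Mau2: agacaccaagagGTAGTAggt
Nfya: cagaccctccagGTAGTGgtg
Stat3: aagccgacccagGTAGTTgtt
Cnbp: gccgcggcagagGTGGTTtta

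All 5 have GT after both cuts.

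A distance of 3 bases stood out at acceptors and not at donors. The same search at every distance from 1 to 30 bases gave 1518 acceptor pairs, of which 40.2% were 3 bases apart. The next most frequent distances were 4 bases with 152 pairs and 5 bases with 84, and the median over the other distances was 25 pairs. At donors the search gave 717 pairs, of which 3.63% were 3 bases apart, and the most frequent distance was 4 bases with 101 pairs. The 610 acceptor pairs lay on 585 distinct pairs of acceptors, since some acceptors are joined to several donors, so pairs are not independent of each other.

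**Figure D1:**
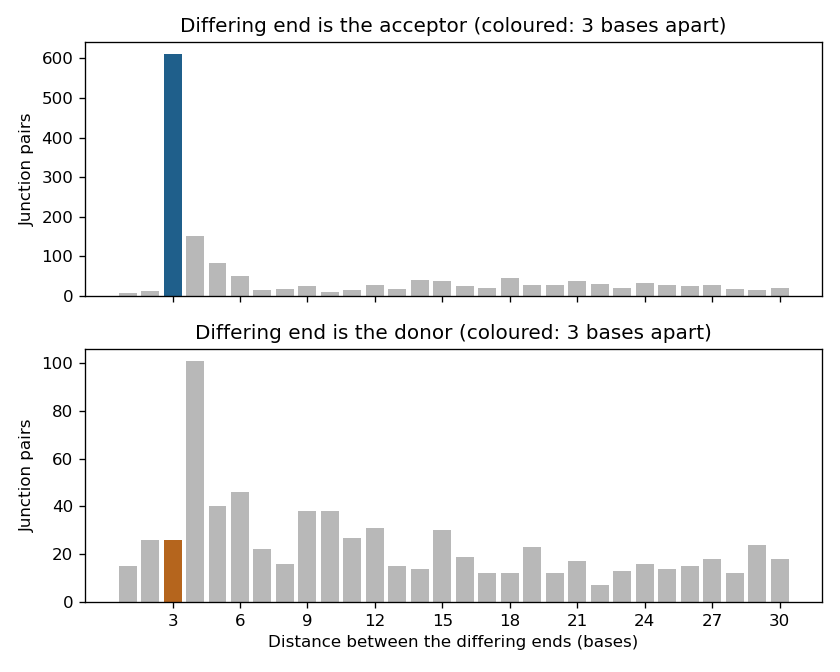
Number of junction pairs that share 1 end, by the distance between their differing ends in bases, for acceptors (top) and donors (bottom); each junction has at least 20 reads. The acceptor bar at 3 bases (610 pairs) is the highest of its panel, while the donor bar at 3 bases (26 pairs) is below the 101 pairs at 4 bases.

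Genes were named by recognising each junction in the GENCODE M21 gene models from exact intron lengths and neighbouring introns, because the junctions are on mm9 and the models on GRCm38. Both forms of 359 acceptor pairs were in the models, in 331 genes. In 214 pairs the models held only 1 form, the upstream form in 155 and the downstream form in 59, and 37 pairs were not recognised. Of the 26 donor pairs, 15 had both forms in the models, 9 had 1 and 2 were not recognised.

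The bases that are kept or removed always ended in AG where both forms were known. All 359 of these triplets did, for which the exact Clopper-Pearson 95% interval is 99.0 to 100%; such intervals cover counting error only. CAG made up 305, AAG 29 and TAG 25, and GAG was not among them. Both introns of these pairs had to be in the gene models, and the triplet ends the downstream form's intron. The matching itself therefore favoured AG at both cuts. The bases before the upstream acceptor could be read for 94 pairs, and 93 of these had AG before both cuts (98.9%, exact interval 94.2 to 99.97%), the exception being Cnbp. The next 3 exon bases repeated the triplet in 20 of the 359 pairs, as in Nfya.

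Where both forms were in the models, the upstream share differed with the identity of the triplet. The median share of reads at the upstream acceptor was 54.7% for the 305 pairs with CAG downstream, 68.1% for the 25 with TAG and 74.0% for the 29 with AAG. The medians in the first entry were 54.4, 66.3 and 73.0%, and in the second 54.1, 69.6 and 74.5%, the same order in both. Where the upstream bases were known too, 64 pairs with CAG at both acceptors had a median of 57.8%, and the 16 with TAG upstream and CAG downstream had 35.4%. The 5 pairs with CAG upstream and AAG downstream had a median of 83.8%. The 4 with CAG upstream and TAG downstream had 50.6%, below the pairs with CAG at both. Where only the upstream form was in the models, TAG was below CAG too. The medians there were 87.0% for 90 pairs with CAG, 83.3% for 14 with TAG and 92.2% for 46 with AAG. These groups differ in size and were chosen on reads, so no test was made between them.

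A second search began from single acceptors. It drew on the same junctions, so it is not independent of the pairs above, and it set a read minimum of 200 at the upstream acceptor. The share of junctions with a downstream partner fell in the order CAG, TAG, AAG. Of the 35887 junctions with at least 200 reads, 34674 were recognised in the gene models, and their first 3 exon bases were read. Where the exon began with CAG, 180 of 235 junctions had a partner of at least 20 reads 3 bases downstream (76.6%, exact interval 70.7 to 81.9%). With TAG it was 24 of 39 (61.5%, 44.6 to 76.6%), and with AAG 48 of 275 (17.5%, 13.2 to 22.5%). With GAG it was 5 of 1163 (0.430%, 0.140 to 1.00%). Read depth was unequal, with median reads of 552 for CAG, 381 for TAG, 426 for AAG and 450 for GAG. Its part in these shares was not tested. Of the 32962 junctions whose exon began with any other 3 bases, none had such a partner, which allows a share of up to 0.0091% by 3 counts of the total (exact interval 0 to 0.0112%), although 156 had a partner with at least 1 read. Exons beginning with GAG were the most frequent of the 4 kinds and had the fewest partners. Among 7042 of these introns whose last 3 bases could be read, 72.0% ended in CAG, 23.4% in TAG, 4.16% in AAG and 0.227% in GAG.

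Use of the acceptors ranged over the whole scale. Across the 610 acceptor pairs the upstream share ran from 0.337% to 99.8%, with a median of 63.9% and quartiles of 36.9 and 84.0%. More reads were at the upstream acceptor in 384 pairs, more at the downstream acceptor in 224, and equal numbers in 2. The share lay between 40 and 60% in 121 pairs, above 90% in 98 and below 10% in 24. The median was 63.5% in the first entry and 64.3% in the second. The median depends on the read minimum, being 57.3% over the 312 pairs with at least 50 reads in each junction. At the minimum itself, the 23 pairs whose less read junction had 20 reads had a median upstream share of 65.5%, and the 19 with 19 reads, just outside, had 48.7%.

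The form that the gene models hold was usually the more read one. Where only the upstream form was in the models, 146 of 155 pairs had more reads upstream, with a median share of 88.6% and quartiles of 74.5 and 95.3%. Where only the downstream form was, 50 of 59 had more reads downstream, with a median upstream share of 20.8% and quartiles of 9.98 and 39.9%. Where both were, the median was 56.4%, with 210 pairs higher upstream and 148 higher downstream.

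**Figure D2:**
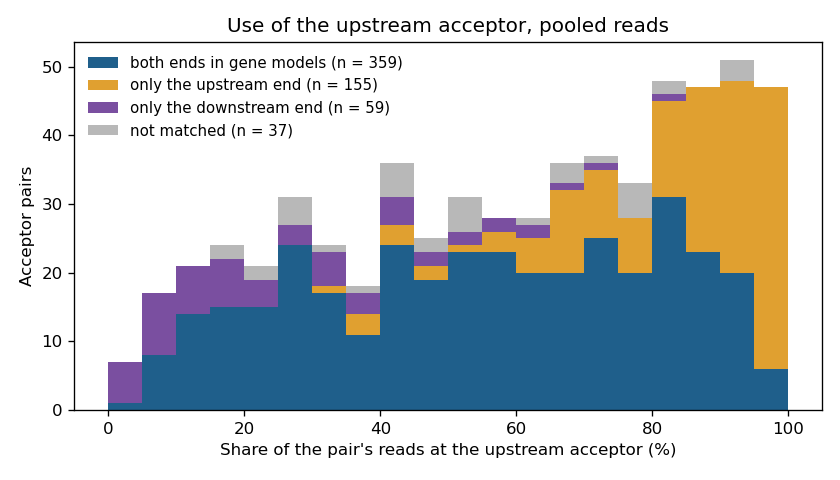
Number of acceptor pairs by the share of the pair's pooled reads at the upstream acceptor, in bins of 5 percentage points, stacked by whether the GENCODE M21 models hold both acceptors, only the upstream, only the downstream or neither. Pairs with both acceptors in the models (median 56.4%) spread over the whole scale, and those with only the upstream acceptor (median 88.6%) pile up at the right.

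The acceptor pair with most reads was in Cfd, complement factor D, also called adipsin, a serine protease of the alternative complement pathway that fat cells make in quantity. Its introns begin at chr10:79353726 and end at 79354200 or 79354203 (mm9), in coding sequence. The first entry had 5700 reads upstream and 6980 downstream, and the second 5793 and 8170. The upstream share was 45.0% in the first and 41.5% in the second, 43.1% pooled (exact interval 42.5 to 43.7%). In both entries the downstream acceptor was the more used. All 3 fat cell marker genes were at 1 TPM or more in both libraries. TPM is a level scaled for transcript length and library size. Ucp1 had 346 TPM in replicate 1 and 124 in replicate 2. Cidec differed less, with 96.7 and 80.85, and Adipoq was slightly higher in replicate 2, with 43.9 and 48.4. The part of fat cells in the Cfd reads was not tested.

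Other highly read pairs leaned strongly to the upstream acceptor. Aes, a Groucho-family corepressor now also called Tle5, had 10369 reads upstream and 739 downstream in the first entry and 13687 and 1033 in the second. Its pooled upstream share was 93.1%. Nono, a paraspeckle RNA-binding protein, had shares of 92.4 and 92.2% in the 2 entries, at a pair in the 5′ UTR. Fkbp8, an immunophilin of the mitochondrial membrane, had 81.4 and 80.4%. In Arhgef1, a guanine nucleotide exchange factor of blood cells, 1 site had 90.6 and 89.8% and another, where only the upstream form is in the models, 99.6 and 99.3%. In all of these the entries differed by at most 1.00 percentage point.

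Another set was close to even or leaned downstream. Fau, which encodes a ubiquitin-like protein fused to ribosomal protein S30, had 48.7% upstream in the first entry and 47.5% in the second. Impdh1, an enzyme of guanine nucleotide synthesis, had 47.3 and 47.3%. Rnf44, a RING finger gene, had 41.4 and 36.8% at 1 site and 8.21 and 5.38% at another. Fxyd5, a regulator of the sodium pump, had 18.7 and 18.99%, with AAG before its upstream and CAG before its downstream acceptor. Ly6e, a surface protein of the Ly6 family, was on the other side, with 69.2 and 69.6%.

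The pairs nearest to even use, among those with at least 200 reads and both forms in the models, included regulators of transcription. Nfya, a subunit of the CCAAT-binding factor NF-Y, had 40 reads upstream and 48 downstream in the first entry and 62 and 53 in the second, so the majority changed sides and the pooled share was 50.2% (exact interval 43.2 to 57.3%). A site of Phf21a, a histone-reading component of a demethylase complex, had 54.6 and 44.7%. A site of Cic, the repressor capicua, had 52.5 and 48.5%. Aak1, a kinase of clathrin adaptors, had 48.6 and 49.8%. For Nfya, Phf21a and Cic, the side with more reads differed between the entries.

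Among pairs with at least 200 reads and both forms in the models, the highest upstream shares were in Rbm5, Phf1 and Gatad2b. Rbm5, itself a splicing regulator, had 462 reads upstream and 17 downstream in the first entry and 710 and 27 in the second, a share of 96.5 and 96.3%. Phf1, a Polycomb-associated protein, had 95.02 and 97.0%, and Gatad2b, a NuRD complex subunit, 96.2 and 96.3%. The lowest in the same set were in Vps9d1 with 3.47 and 3.06%, in Dazap1, an RNA-binding protein, with 5.36 and 4.96%, and in Tm9sf4 with 4.31 and 6.98%. The triplet was CAG in all 6.

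Genes of T cell development held pairs that mostly used the upstream acceptor. Of 53 such genes, 12 had a pair (22.6%), beside 519 of the 13816 genes at 1 TPM or more in both libraries (3.76%). The T cell genes were also expressed far higher, with median levels of 250 and 214 TPM in the 2 libraries against 14.9 and 14.5 over all those genes, which gives more of their junctions 20 reads; the part of expression in the count was not tested. They held 16 acceptor pairs with a median upstream share of 91.8%, and 12 of the 16 were above 80%, beside 192 of all 610 acceptor pairs (31.5%). Only 5 of the 16 had both forms in the models. The others had only the upstream form there, a class with a median of 88.6% over all its 155 acceptor pairs. The parts of this class and of read depth in the T cell genes' shares were not tested. The genes were listed with earlier results of these data known.

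Lat, the adaptor that couples the T cell receptor to its downstream enzymes, had 6244 reads upstream and 10 downstream in the first entry and 7461 and 23 in the second. Its pooled upstream share of 99.8% was the highest of all acceptor pairs, and its triplet was GAG. Coro1a, an actin regulator of leukocytes, had 98.1 and 97.7%, and Dntt, the polymerase that adds bases at receptor gene joints, 96.6 and 95.8%. Cd247, the zeta chain of the T cell receptor complex, had 427 reads upstream and 38 downstream in the first entry and 550 and 53 in the second, a share of 91.8 and 91.2%. Cd3e, another chain of the complex, had 91.3 and 93.4% at a pair in its 5′ UTR. Bcl11b and Gata3, transcription factors of the T lineage, had 77.2 and 77.4% and 76.1 and 79.3%. In each of these genes the upstream acceptor was the more used in both entries.

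Tcf3, which encodes the E proteins E12 and E47, held 3 tandem acceptors with 3 different balances, all with both forms in the models and CAG as triplet. The first along the gene had 348 reads upstream and 783 downstream in the first entry and 413 and 839 in the second, 30.8 and 33.0% upstream. The middle site had 491 and 488, then 501 and 468, or 50.2 and 51.7%. The last had 220 and 14, then 358 and 15, or 94.0 and 96.0%. The pooled exact intervals, 30.1 to 33.8%, 48.7 to 53.2% and 93.2 to 96.8%, did not overlap, and both entries gave the same order. Tcf12, a related E protein, had 95.9 and 93.8% at its site. Foxn1, the transcription factor of thymic epithelium, held 2 sites, with 71.3 and 68.4% at 1 and 51.6 and 65.9% at the other. In all, 44 genes held 2 or more distinct tandem acceptors.

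The same 2 acceptors could be used differently with different donors. At 21 pairs of acceptors, 2 or more donors each gave a tandem pair. The upstream share differed between the lowest and highest donor by at least 0.966 points, with a median of 5.47. At 8 of the 21 the exact intervals of these donors lay apart, and at all 8 both entries gave the same order of them. These sites were singled out after the shares were seen, and donors were ordered by the shares themselves, so no test is given.

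Shisa5, a p53-induced gene of the endoplasmic reticulum and nuclear membrane, joined 1 tandem acceptor (TAG, then CAG) to 5 donors. The upstream share was 9.52 and 10.6% from the donor at chr9:108953743 (mm9), and 9.49 and 12.3% from the one at 108953769. From the donor at 108953748, which lies between them, it was 44.8 and 49.7%. It was 55.6 and 58.4% from 108953650, and 26.0 and 37.0% from the farthest, at 108943541. The 2 donors with the lowest shares thus lie on either side of a donor with a far higher share in both entries.

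Phf21a had 8 reads upstream and 55 downstream in the first entry and 24 and 56 in the second from a donor with an intron of 7852 bases, or 22.4% pooled. From a donor with an intron of 1147 bases it had 71.6 and 67.5%. In Mfsd10, a membrane transporter gene, the shares were 30.3 and 21.04% and 51.8 and 45.3%. In Aak1 they were 48.6 and 49.8% and 65.9 and 65.0%. The noncoding gene 5830418P13Rik had 36.7 and 35.9% and 69.1 and 71.1%, and a site on chr10 that was not recognised had 46.4 and 39.6% and 78.0 and 82.2%. Satb1, a chromatin organiser of thymocytes, had intervals apart at a small difference, 88.7 against 91.0% pooled, on 9756 and 1814 reads. Pcbp2 and Ccr9 differed least between donors, by 0.971 and 0.966 points.

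**Figure D3:**
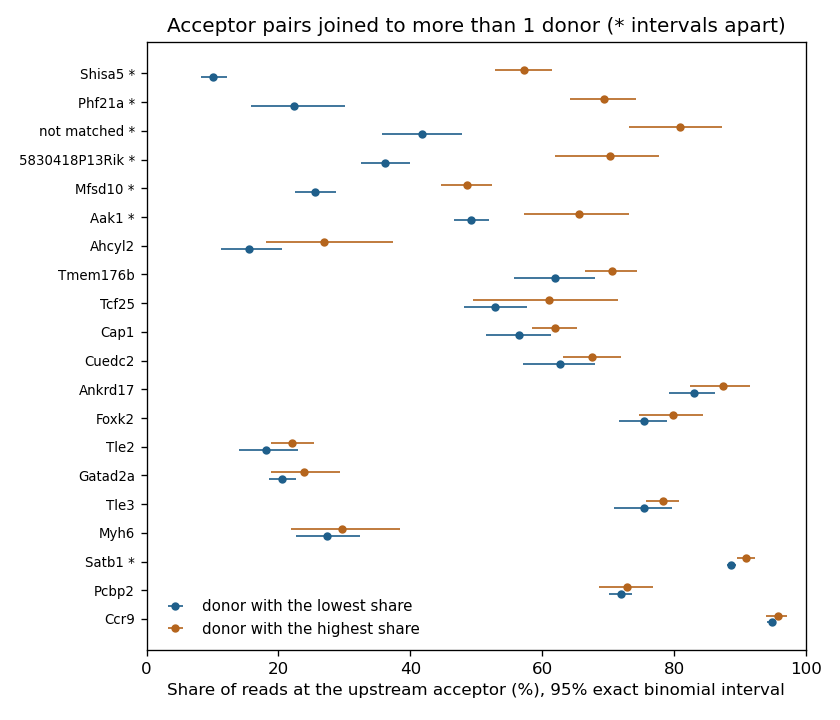
Share of reads at the upstream acceptor, in percent, for pairs of acceptors that are joined to more than 1 donor and whose junctions all carry 1 for the entry C; for each gene the donor with the lowest and the donor with the highest pooled share are shown with 95% exact binomial intervals. Sites are ordered by the difference, from Shisa5 (47.1 points) at the top to Ccr9 (0.966 points), and those with intervals apart carry an asterisk.

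Some junctions ran in steps. Hmbox1, a homeobox gene, had 3 acceptors 3 bases apart, with 34, 38 and 20 reads from the first to the last. Cnbp, a zinc finger protein that binds single-stranded nucleic acid, had 3 as well, with 39, 661 and 2059 reads. Its middle acceptor follows TTG, and 327 reads in the first entry and 334 in the second used it, beside 927 and 1132 at the acceptor after AAG. The middle and first acceptors of Cnbp carry 0 for the entry C in their junctions' names. Of 7015 well-read introns with C at 1 whose last bases could be read, all 7015 ended in AG, and no label says what C means. In all, 9 acceptor pairs carry 0 in 1 or both junctions. Among them is Gnas, the stimulatory G protein alpha subunit, where the upstream acceptor carries 0 and had 230 and 199 reads against 117 and 101 downstream, a share of 66.3% in both entries. In the same group Tln1, the integrin-binding protein talin, had 1 and 19 reads upstream against 2522 and 3388 downstream.

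Most tandem acceptors lay in coding sequence. Of the 359 pairs with both forms in the models, the triplet was in coding sequence in 296, in the 5′ UTR in 45, in the 3′ UTR in 7 and in noncoding transcripts in 11. The median upstream share was 56.1% in coding sequence and 56.4% in the 5′ UTR. For 282 pairs, the downstream form codes on both sides of the junction. Its intron fell between codons in 121 (42.9%), after the first base of a codon in 103 (36.5%) and after the second in 58 (20.6%). Over the 195762 distinct coding introns of the gene models the figures were 44.9, 32.9 and 22.3%. When the 3 extra bases were placed in the frame of the downstream form, a stop codon arose in 1 of the 282, in Galt, a galactose-metabolising enzyme. There the triplet is TAG and falls between codons, and the upstream acceptor that includes it had 114 and 220 reads against 182 and 236 downstream. The other 16 of the 17 TAG triplets in this set fell inside codons and gave no stop.

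The 26 donor pairs divided evenly, with 13 read more at the upstream donor and 13 at the downstream donor. The median upstream share was 48.4%, with quartiles of 15.04 and 88.9%, and it was 53.3% in the first entry and 45.8% in the second. Bases were read for 19 triplets, which begin at the upstream donor: 9 were GTG, 8 GTA and 2 GCA. At all 8 pairs where the bases after the downstream donor could be read, these began with GT. The entry C was 0 in 1 or both junctions of 8 of the 26 donor pairs, beside 9 of the 610 acceptor pairs. Among the donor pairs it was 0 downstream only in 4, upstream only in 2 and in both junctions in 2.

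Gstp1, a glutathione transferase, had GCA at its upstream donor, and 34 and 44 reads there against 2203 and 2511 downstream, a share of 1.52 and 1.72%. Actr3, an actin nucleator subunit, was the other gene with GCA, with 29 and 27 reads upstream against 22 and 10. Snrpa, a protein of the U1 particle that recognises donors, had 33.4 and 29.9% upstream at a donor pair in its own 5′ UTR. Cnbp had 90.9 and 94.8%, and Map4, a microtubule-associated protein, 94.4 and 95.02%. Mau2, a cohesin loader subunit, had 126 reads upstream and 97 downstream in the first entry and 152 and 177 in the second, so that the majority changed sides. Itgal, the alpha chain of the leukocyte integrin LFA-1, had 63.6 and 67.6%. Cfd held a donor pair beside its acceptor pair, with 8 and 13 reads at the upstream donor against 5700 and 5793.

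The entries allow a comparison that the choice of members did not use, since only their sum entered the rule. Shares in the 2 entries gave a Pearson r of 0.951 across the 610 acceptor pairs, which share libraries and, in part, acceptors. The majority was at the same acceptor in 560 of 610 pairs. The median difference was 3.51 points, and 2.59 points for the 412 pairs with at least 200 reads. By two-sided Fisher's exact test with Benjamini-Hochberg adjustment over all 2235 pairs 1 to 30 bases apart, 18 of the 636 pairs differed between the entries at an adjusted p under 0.05 (2.83%). The same held for 2.56% of the pairs at other distances and for 2.64% of all pairs, so the members' share is near the background. At an unadjusted p under 0.05, 102 of the 636 differed (16.0%), beside 15.3% at other distances. The test compares the reads of 2 entries, not conditions. It takes each read as independent, so its p-values cover counting error only and not the spread among replicates.

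In these tests of counting error Cfd had the lowest p (Fisher's exact test, adjusted p = 9.07e-06), at a difference of 3.46 points on its large number of reads. Tsc2, a regulator of mTOR signalling, differed most in points among the 18, with 6 reads upstream and 29 downstream in the first entry and 28 and 19 in the second (17.1 and 59.6%, Fisher's exact test, adjusted p = 0.0106). Cdc42bpg, a kinase that binds Cdc42, had 38 and 4, then 34 and 29 (90.5 and 54.0%, Fisher's exact test, adjusted p = 0.00849). Hif1a, the hypoxia-inducible factor subunit, had 4 and 34, then 16 and 19 (10.5 and 45.7%, Fisher's exact test, adjusted p = 0.0486). Stat3, a cytokine-activated transcription factor, was the only donor pair called, with 49 reads upstream and 253 downstream, then 27 and 323 (16.2 and 7.71%, Fisher's exact test, adjusted p = 0.0381).

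**Figure D4:**
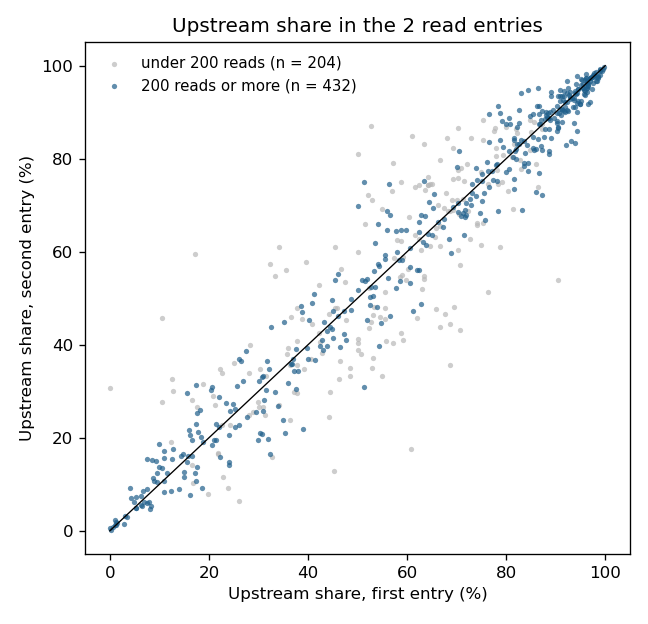
Share of reads at the upstream end, in percent, in the first entry (x axis) and the second entry (y axis) for all 636 pairs; blue points have at least 200 reads, grey points fewer, and the line marks equal shares. Points lie along the line, with a median difference of 3.51 points for acceptor pairs, and grey points scatter more widely.

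The transcript tables, made by the authors on mm10 for each library, give a second reading of the same choice. For each pair the TPM of the transcripts with the upstream form was divided by that of all transcripts with either form. Transcripts of the tables' release were matched to the gene models by identifier without version and by equal length, which left 250 acceptor pairs at a mean summed level of at least 1 TPM. The median upstream TPM share was 52.2% in replicate 1 and 53.1% in replicate 2, beside a median read share of 55.3% for these pairs. The libraries differed by a median of 3.07 points. The TPM share had its majority on the same side as the reads in 181 of 250 pairs in replicate 1 and in 180 in replicate 2. It lay within 10 points of the read share in 98 pairs and more than 30 points away in 56. Across these pairs, whose reads and TPM come from the same libraries, the Spearman correlation was 0.57 in both libraries. This matching rule replaced an earlier one, by full versioned identifier, after the result of the earlier one had been seen. The earlier rule gave 30 pairs, a median TPM share of 33.9% and Spearman correlations of 0.28 and 0.22, so the transcript result depends on the matching.

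Individual genes differed in how close the readings were. The 3 sites of Tcf3 had TPM shares of 31.2 and 30.7%, 47.7 and 44.8%, and 94.9 and 96.7% in the 2 libraries, each within 7 points of its read share. Fkbp8 had 81.3 and 80.5% beside 80.8% of reads, and Rbm5 had 97.3 and 97.5% beside 96.4%. Ly6e had 23.3 and 22.2% beside 69.5%, so its majority was on the other side. Transcript models differ elsewhere in the gene too, and the part of this in the differences was not tested.

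**Figure D5:**
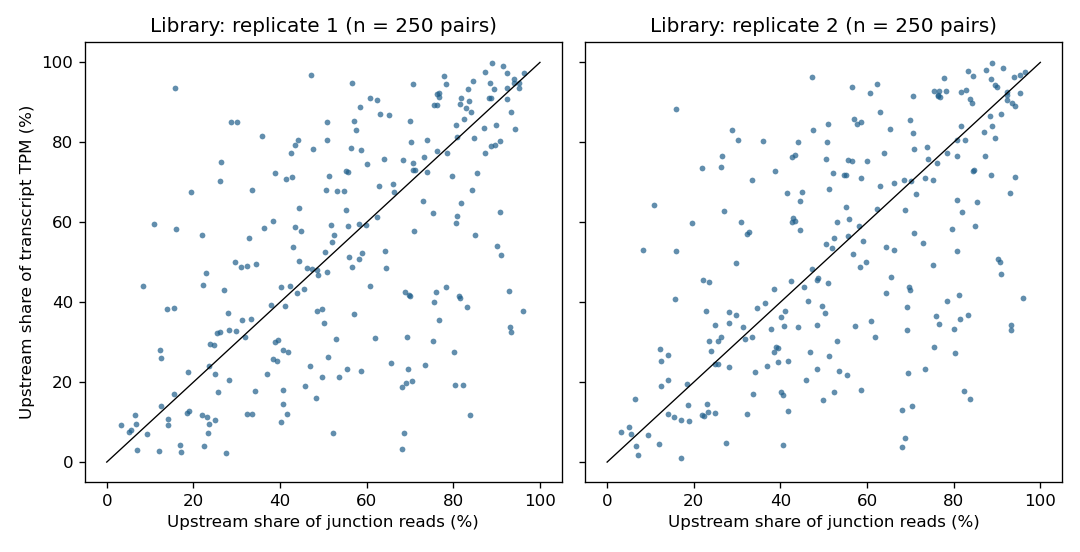
Upstream share of transcript TPM (y axis, percent) against upstream share of pooled junction reads (x axis, percent) for 250 acceptor pairs, in replicate 1 (left) and replicate 2 (right); the line marks equal shares. Points follow the line loosely, with 56 pairs more than 30 points away from it in the mean of the libraries.

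Genes for the factors that recognise acceptors were all expressed. All 22 on the list were at 1 TPM or more in both libraries, with median levels of 72.1 and 64.8 TPM. U2af2, the large U2AF subunit, had 273 and 251 TPM, U2af1, the small subunit, 66.9 and 55.4, and Sf1, which binds the branch point, 467 and 291. Prpf18 had 17.3 and 15.4 TPM, and Slu7, at 3.74 and 3.26 TPM, was the lowest of the list. Of the 22, 2 held a tandem acceptor themselves: Sf3b2, a subunit of the U2 particle, with 95.01 and 92.5% upstream, and Puf60, a poly(U)-binding factor, with 90.8 and 92.4%. All 12 genes for donor recognition were at 1 TPM or more in both libraries too, and Snrpa was the only member with a pair.

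The label of the tissue was checked on marker genes. All 6 thymocyte markers were at 99.4 TPM or more in both libraries and all 5 markers of thymic epithelium at 22.7 TPM or more. The 3 markers each of B cells and macrophages were at 1 TPM or more. Of the 2 liver markers, Alb had 44.2 TPM in replicate 1 and 0.18 in replicate 2, and Apoa1 had 10.95 and 2.60. The gene tables held 49.3 M and 63.1 M estimated fragments, and the junction entries 17214608 and 21728063 reads.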

How the data were processed

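Junctions were read from the authors' deposited table on mm9, which has no header: whole read counts per junction, a reproducibility score, and a name with the entries A, C and 2 read entries, whose meanings were taken from the values (the entries sum to the count in 100% of rows). Per the file headers, the gene and transcript tables hold TPM and expected counts. Per the text files deposited with them, they are on mm10 with GENCODE M4. For the aligner and the quantifier, names and settings were not given in the sources used here. Of 8 deposited files, 5 were used.

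Coordinates were not converted between builds. A junction pair was named when its intron lengths, chromosome and strand, and the distance to at least 1 neighbouring intron of at least 20 reads, matched a single place in GENCODE M21. Sequence was read only where an M21 transcript covers it. On simulated junctions with shifted coordinates the matching by both forms gave 471 right, 0 wrong and 29 unmatched of 500 tandem pairs. It matched 0 of 500 decoys. These junctions were taken from the M21 models themselves, and the matching by 1 form was not checked in this way. In the simulated comparison of entries for 636 pairs, Fisher's exact test called 79.5% of 200 pairs changed by 25 points, and 6 unchanged pairs.

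Intervals are exact Clopper-Pearson at 95%. Named acceptor and donor pairs, among those with both forms in the gene models, were those with most reads, those nearest an even share, and on the acceptor side those with the highest and lowest shares (at least 200 reads for shares), plus every pair in a listed gene. The members, lists and rules were chosen with earlier results of these data known. The use of the entries, the count of first exon bases, the sites with several donors and the transcript matching were chosen after the data were seen, as were Shisa5, Gnas, Galt and the other genes named outside the rule. Some genes and sequences are not reported here. Because nothing says the libraries came from separate animals, their spread may be technical. Tests ran in scipy 1.17.1 under Python 3.11.15, tables in pandas 2.3.3 with numpy 2.4.6, and plots in matplotlib 3.10.9.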

Additional observations from a re-analysis of the deposited data

How the results depend on the processing

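With a minimum of 10 reads in each junction there were 908 acceptor pairs, with a median upstream share of 68.3%, and 41 donor pairs. With 50 reads there were 312 acceptor pairs, at 57.3%, and 12 donor pairs, at 39.0%. Acceptor pairs with at least 100 reads in both junctions together had a median of 67.6%. A higher minimum leaves fewer pairs by construction; the cause of the shifts in the medians was not tested. Leaving out an entry gave acceptor medians of 63.5 to 64.3% and donor medians of 45.8 to 53.3%. Leaving out a library gave median TPM shares of 52.2 to 53.1%, against 53.3% for the mean of both. Matching transcripts by versioned identifier, an alternative added after the data were seen, gave 33.9% on 30 pairs; the cause was not tested. Limiting pairs by the reproducibility value or to those that share no junction, the other matching rules for the AG count, and other TPM minimums kept values within 1 SD of the entries or libraries, or within the exact interval. Of 56 values for 28 named pairs with 1 entry left out, 11 left the pooled exact interval and 4 changed the side of the majority. No paired analysis was possible because the series has 1 group. Sequence before the upstream acceptor was read for 94 of 359 pairs only.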
